A study of Mus musculus with 6 samples.

Results

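Solute carriers are the membrane proteins that move amino acids, ions, sugars, vitamins, metals and other small molecules across the plasma membrane and the membranes of organelles. Their genes were followed here in RNA of glomerular endothelial cells, which line the fenestrated capillaries of the kidney filter. The members were all genes whose symbol is Slc followed by a number, without the mitochondrial Slc25a family, the glucose carriers of Slc2a and the monocarboxylate carriers of Slc16a. They made up 180 of the 12911 genes listed, and 236 listed genes had a symbol of the form Slc and a number. Of the 180, 5 are named after a carrier but are not carriers themselves: the PDZ scaffolds Slc9a3r1 and Slc9a3r2, and Slc4a1ap, Slc7a6os and Slc36a1os.

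The mice of both groups were eNOS-null, lacking endothelial nitric oxide synthase. The control group had no treatment and the other group had been given STZ (streptozotocin), which kills the insulin-making beta cells and is a standard way of making mice diabetic. After bead capture of glomeruli and enzyme digestion, EYFP+ cells were sorted, about 200000 of them per mouse. Each group had 3 libraries, each made from the pooled RNA of 4 mice with an RNA integrity value above 7.5, so the SDs and p-values below describe variation from pool to pool and not from mouse to mouse. The mice's age and sex, the time after STZ and the driver of the EYFP label are not given in the labels. The comparison asks which carriers differed in abundance between the STZ and the control pools.

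Carriers differ in how they work: symporters and antiporters use the gradient of one ion or solute to move another, and uniporters let a solute run down its own gradient. In an endothelial cell they supply arginine to nitric oxide synthase, take up nucleosides and adjust cell volume, while the tubules of the nephron hold carriers such as Slc12a1 and Slc12a3 that reclaim salt from the filtrate.

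The promoters of 4 called members are shown because these 4 had the smallest p-values among the called members with an entry in the RefSeq promoter table. Each is the 250 bases before the RefSeq gene start in GRCm38.p6, printed 5′ to 3′ on the gene's strand. The window of Slc10a6 lies at chr5:103629404-103629653 on the minus strand, that of Slc15a2 at chr16:36784963-36785212 on the minus strand, that of Slc5a3 at chr16:92058072-92058321 on the plus strand and that of Slc18a2 at chr19:59260628-59260877 on the plus strand. Capitals mark every match, on either strand, to 1 of 5 motifs that were chosen after the values were seen.
Slc10a6: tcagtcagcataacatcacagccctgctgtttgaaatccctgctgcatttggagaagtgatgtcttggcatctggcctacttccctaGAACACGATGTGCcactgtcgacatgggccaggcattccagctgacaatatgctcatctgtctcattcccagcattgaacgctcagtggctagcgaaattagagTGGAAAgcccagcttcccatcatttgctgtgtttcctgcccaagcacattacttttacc
Slc15a2: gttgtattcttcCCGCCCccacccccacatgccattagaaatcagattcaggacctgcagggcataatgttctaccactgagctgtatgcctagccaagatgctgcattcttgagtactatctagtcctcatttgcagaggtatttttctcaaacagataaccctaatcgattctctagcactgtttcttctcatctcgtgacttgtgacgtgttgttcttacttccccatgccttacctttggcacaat
Slc5a3: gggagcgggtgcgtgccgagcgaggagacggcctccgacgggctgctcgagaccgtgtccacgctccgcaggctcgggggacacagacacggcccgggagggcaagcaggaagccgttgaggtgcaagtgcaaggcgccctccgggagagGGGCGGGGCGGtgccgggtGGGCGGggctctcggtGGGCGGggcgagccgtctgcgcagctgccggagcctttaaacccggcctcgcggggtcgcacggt
Slc18a2: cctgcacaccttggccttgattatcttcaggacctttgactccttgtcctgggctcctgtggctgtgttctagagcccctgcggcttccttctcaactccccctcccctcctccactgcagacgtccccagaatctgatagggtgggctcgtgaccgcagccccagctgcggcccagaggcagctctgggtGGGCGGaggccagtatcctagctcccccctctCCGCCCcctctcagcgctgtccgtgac
The windows differed in base composition, with a GC content of 49.2% for Slc10a6, 45.2% for Slc15a2, 74.8% for Slc5a3 and 64.0% for Slc18a2. The pair of glucocorticoid receptor sites searched as GNACA, 3 bases of any kind and TGTNC matched GAACACGATGTGC in Slc10a6, from 163 to 151 bases before the start. It matched 1 of the 141 members with an entry and 0.387% of all 32851 windows. Here and below, members were counted once per gene, whereas the share of windows covers every window of the promoter table. The counts and the shares are therefore not directly comparable. The GC box GGGCGG was found in 90 of 141 members, in 9 of the 14 called members with an entry and in 32.7% of all windows, with 4 matches in Slc5a3, of which the first and the next share a base. The CCAAT box CCAAT was found in 51 of 141 members and 33.8% of all windows, the TATA box TATAAA in 15 members and 12.4%, and TGGAAA, the core of the tonicity element, in 27 members and 18.6%. Slc10a6 held 1 TGGAAA match, 59 to 54 bases before the start, and a match is a description of letters and not evidence of a bound site.

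The libraries differed in ways that touch what follows. Total deposited counts were 4387339 to 8751732.5 in the control pools and 10734376 to 12662371.5 in the STZ pools, so every STZ library was the deeper. Xist, the RNA of the inactive X, was at 690 to 746 CPM (counts scaled to a common library size by edgeR) in control pools and at 0.387 to 0.865 CPM in STZ pools, and the Y-linked Ddx3y at 3.07 ± 0.375 and 135 ± 4.09 CPM (mean ± SD, n = 3). The sex of the pooled mice and the treatment therefore cannot be told apart. Of the tested members 7 lie on the X, of which 1, Slc10a3-ubl4, was called. Nos3, the gene that the genotype removes, was listed at 757 to 917 CPM in controls and 613 to 749 CPM in STZ pools. The labels do not give the deleted part, so its counts check no label. The summed CPM of 14 mesangial and mural markers was 1625 to 1758 in controls and 658 to 1297 in STZ pools, with 12 of the 14 lower in every STZ pool, and 4 were called lower, Myh11, Cspg4, Rgs5 and Notch3. The summed CPM of 17 glomerular endothelial markers was 21129 to 23527 in controls and 32091 to 34301 in STZ pools, with 8 called higher. Of the 17, 10 were higher in every STZ pool, 1 (Nos3) was lower in every STZ pool and 6 overlapped. Plat alone went from a mean of 2630 to 8303 CPM, and Tek and Tie1 had log2 differences of 0.02 and −0.01. Of 16 podocyte markers 0 were called by edgeR (3 at an unadjusted p under 0.05), with a median log2 fold change of −0.63. Without Podxl, which is also among the endothelial markers, their sum was 2252 to 4359 in controls and 2132 to 2934 in STZ pools. Of 12 tested distal nephron markers 0 were called, and their sum was 190.2 to 612 and 58.6 to 249. Of 5 erythroid markers 3 were called higher, with a sum of 21.8 to 59.1 and 125 to 206.

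The carriers spanned a wide range of abundance. In controls 20 members were at 100 CPM or more, 104 between 10 and 100, 53 between 1 and 10 and 3 under 1, with a median of 22.6 CPM against 33.6 over all listed genes. The 5 with the highest CPM held 42.4% of the summed member CPM of 11492.5 in controls, and the sum was 12720.7 in STZ pools. On the same scale the summed CPM of all listed genes was also higher in STZ pools, at 1035460 against 965953 in controls. Levels between genes are compared per length, as CPM per kilobase of the listed transcript. On that scale the scaffold Slc9a3r2, which holds transporters and receptors at the membrane, was highest in controls at 1207. It was followed by Slc43a3, a purine nucleobase carrier, and Slc6a6, the taurine carrier, both at 197, and by Slc44a2, a choline transporter-like protein, at 176. The sugar carrier Slc50a1 was at 165, Slc26a10 at 120 (119.86 before rounding), the nucleoside carrier Slc29a1 and the glutamine carrier Slc38a2 both at 108, and Slc3a2, the heavy chain of amino acid exchangers, at 88.7.

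**Figure D1:**
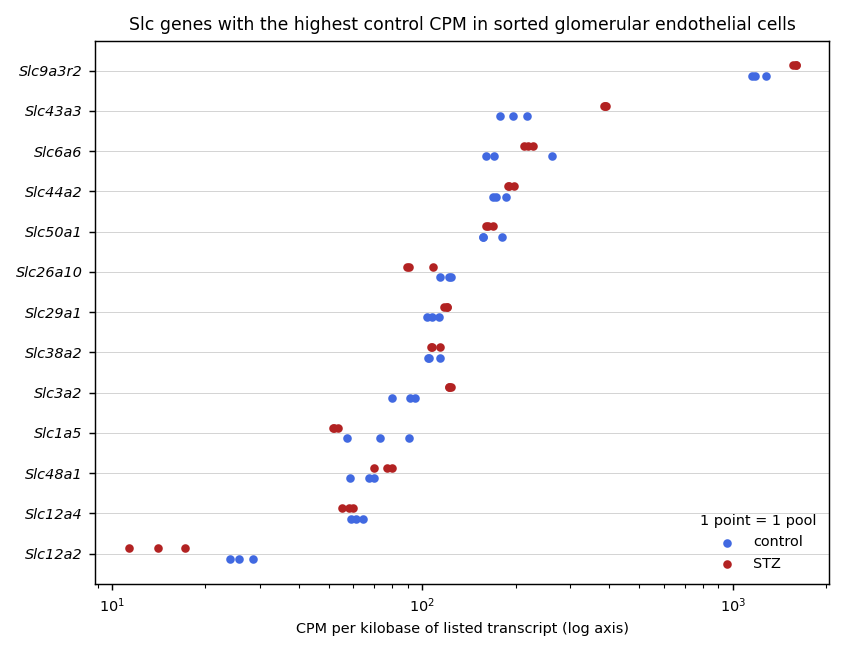
CPM per kilobase of listed transcript on a log axis for the 13 Slc genes with the highest control CPM, 1 point per pool (blue, control; red, STZ). Slc9a3r2 stands above all others shown, and the STZ points of Slc43a3 lie apart from its control points.

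Of the 179 members tested, 19 passed the test, with an adjusted p under 0.05 by edgeR's quasi-likelihood test and Benjamini-Hochberg adjustment over all genes. That is 10.6% of the members, beside 9.78% of all 12786 tested genes. The share called higher in STZ pools was 5.03% (9 members) beside 5.47% of all genes, and the share called lower was 5.59% (10 members) beside 4.32%. The pools of the groups did not overlap in 52 members, 29.1% of those tested and 29.1% of all genes, with 27 above (15.1%, all genes 15.4%) and 25 below (14%, all genes 13.7%). With the level of the mesangial and mural markers added to the fit, 3 members were called, and since that level did not overlap between the groups, it and the treatment cannot be told apart. Of the 16 members that lost their call there, 13 kept a log2 fold change within 1.5 times of the first, 2 had a smaller one (Slc12a2 and Slc12a5) and 1 a larger one (Slc4a7). The median log2 fold change was −0.04 in the members and −0.01 in all genes, so the members' shares were near the background. Of the 180, Slc7a4, an orphan carrier, was not tested, at 0.879, 2.73 and 0 CPM in controls and 0.677, 0.865 and 0.648 CPM in STZ pools. An unadjusted p under 0.05 was found in 42 members (23.5%) and in 24.2% of all genes, the background for such counts below. Of the tested members 5 had an absolute log2 fold change of 1 or more, 148 were under 0.5, and the 95% interval lay within 1 in 142 and within 0.5 in 72.

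**Figure D2:**
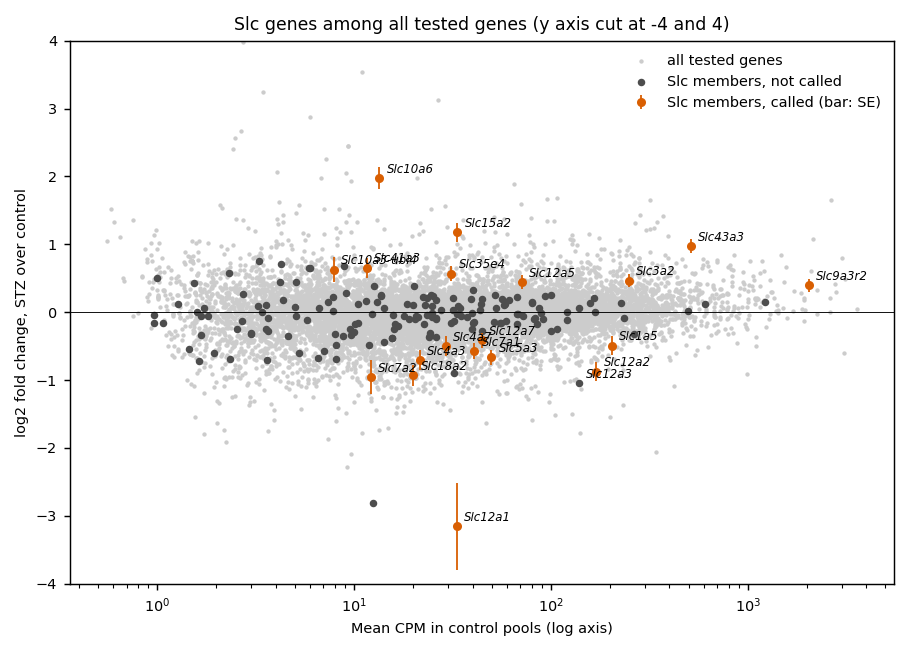
Fold change of STZ over control (log2) against mean control CPM (log axis) for all tested genes in grey, members in black and called members in orange with their SE. Called members lie on both sides of 0, from Slc12a1 at −3.16 to Slc10a6 at 1.98.

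The members called higher were led by Slc10a6, Slc43a3 and Slc15a2, and these 3 were also called under each of 17 alternative settings, the mural marker level among them. Slc10a6, which carries sulfated steroids (5:103605711-103629403 in mm10, minus strand), was at 16.9, 13.5 and 9.94 CPM in control pools 1, 2 and 3 and at 52.3, 57.6 and 53.3 CPM in STZ pools. Every STZ pool was above every control pool, and Slc10a6 rose by 1.98 ± 0.16 (log2, SE), 3.94-fold (adjusted p = 6.42e-06). Its relative Slc10a3 was not called, at 0.10 ± 0.15. Slc43a3 (2:84936646-84958509, plus strand) rose 1.97-fold, from 568, 462 and 511 CPM to 1004, 1007 and 1019 CPM, a log2 difference of 0.98 ± 0.10 (adjusted p = 5.24e-05). It lies in the Slc43 family, whose other members here are amino acid carriers, and the class count below places it with them. Slc15a2, the high-affinity peptide carrier known from the proximal tubule's brush border (16:36750164-36784962, minus strand), rose 2.26-fold. It was at 35.5, 25.5 and 39.5 CPM in controls and 68.8, 76.9 and 80.7 CPM in STZ pools (log2 difference 1.18 ± 0.14, adjusted p = 0.000216).

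**Figure D3:**
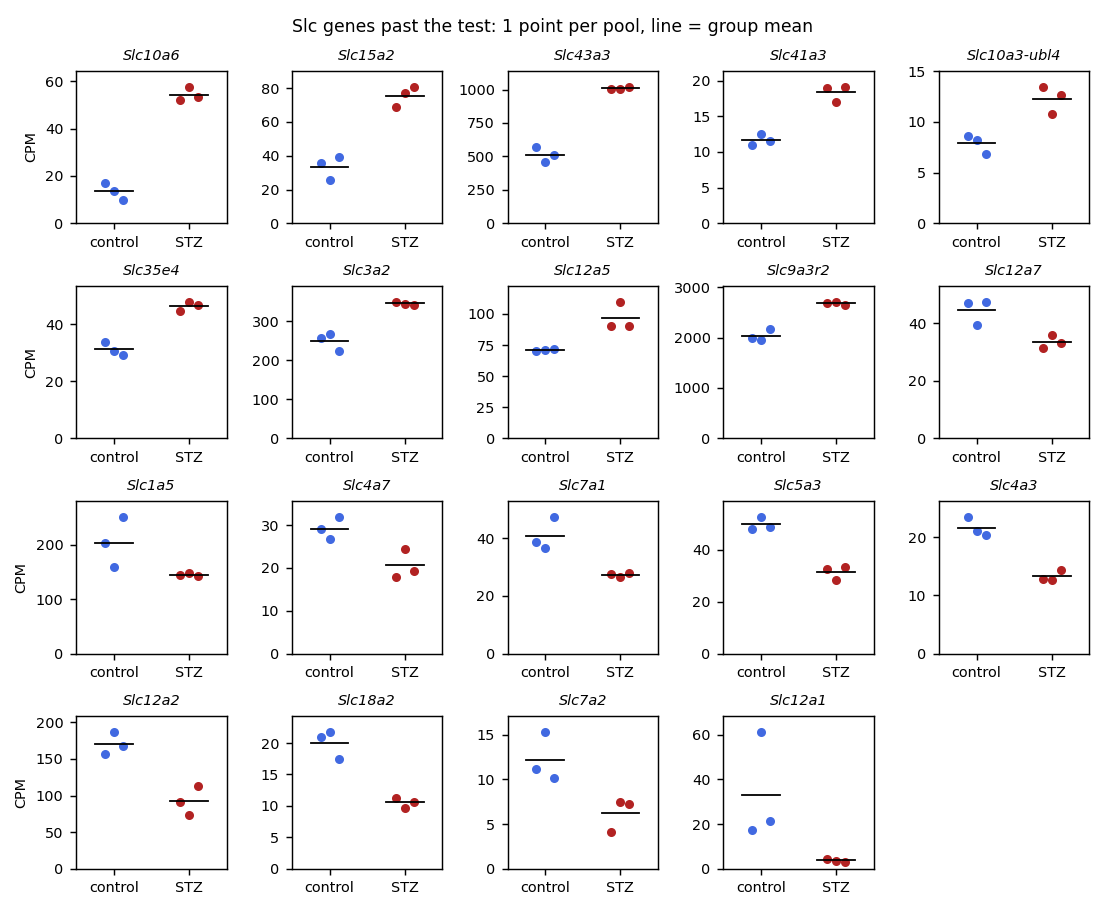
CPM of the 19 called members, each panel with its own axis from 0, 1 point per pool and a line at the group mean. In each panel the control and STZ pools do not overlap.

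Among 33 tested amino acid carriers 2 were called higher (Slc43a3 and Slc3a2) and 3 lower (Slc1a5, Slc7a1 and Slc7a2). That is 15.2%, beside 9.78% of all genes, and the median log2 fold change was −0.16. Slc3a2, which pairs with Slc7a5 and other light chains, rose from 257, 267 and 225 CPM to 348, 344 and 342 CPM, 1.38-fold (log2 0.47 ± 0.09, adjusted p = 0.00623). Its partner Slc7a5 was not called, at 10.5 ± 1.30 and 11.2 ± 1.26 CPM (SD, n = 3). The cationic amino acid carriers Slc7a1 and Slc7a2, which bring arginine into cells, were both called lower. Slc7a1 was at 38.8, 36.5 and 47.3 CPM in controls and 27.7, 26.5 and 27.8 CPM in STZ pools (log2 −0.57 ± 0.12, adjusted p = 0.00981). Slc7a2 was at 11.2, 15.3 and 10.2 CPM and 4.06, 7.44 and 7.28 CPM (log2 −0.96 ± 0.25, adjusted p = 0.0272). The Slc7a2 call was lost without control pool 1, control pool 2 or STZ pool 1, with adjusted p of 0.0769, 0.105 and 0.108. Slc1a5, the glutamine carrier ASCT2, was lower at 202, 158 and 250.3 CPM against 144, 148 and 142 CPM (log2 −0.49 ± 0.14, adjusted p = 0.0485). Its controls spread widely, and the call was lost without control pool 1 or 3 or without any 1 of the 3 STZ pools (adjusted p 0.0792 to 0.165). The taurine carrier Slc6a6 was not called, at 989, 1048 and 1611 CPM and 1316, 1349 and 1399 CPM (log2 0.16, interval −0.22 to 0.53). Control pool 3 decided its value, since without it the difference was 0.42 (adjusted p = 0.00903). The glutamine carrier Slc38a2 was at 485, 484 and 530 CPM and 495, 497 and 528 CPM, a log2 difference of 0.02 with an interval of −0.17 to 0.22.

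Of the 9 members of the cation-chloride family Slc12, 1 was called higher and 3 lower (44.4%, beside 9.78% of all genes). The median log2 fold change was −0.09, and the family was not tested as a set. Slc12a2, the sodium-potassium-chloride cotransporter NKCC1 found in many cell types, fell from 157, 186 and 168 CPM to 91.8, 73.8 and 113 CPM, 0.545-fold (log2 −0.87 ± 0.14, adjusted p = 0.00266). Every STZ pool was below every control pool, and the STZ pools kept the order of the mural marker sum, lowest in pool 2 and highest in pool 3. The sums of the podocyte markers without Podxl and of the distal nephron markers had that order in STZ pools too. In controls Slc12a2 was lowest in pool 1, and the mural marker sum was lowest in pool 3. With the mural marker level in the fit the log2 difference of Slc12a2 was −0.44 (adjusted p = 0.181). Among the potassium-chloride carriers Slc12a5 (KCC2) was called higher and Slc12a7 (KCC4) lower, and Slc12a4 was not called. Slc12a5 was at 70.4, 71.3 and 71.6 CPM in controls and 90.5, 109 and 90.2 CPM in STZ pools (log2 0.44 ± 0.10, adjusted p = 0.0116), but not without control pool 1 (0.0618). With the mural marker level in the fit the log2 difference of Slc12a5 was 0.20 (adjusted p = 0.549), and with the distal nephron marker level 0.32 (0.0854). Slc12a7 was at 47, 39.5 and 47.3 CPM and 31.3, 35.9 and 33 CPM (log2 −0.42 ± 0.12, adjusted p = 0.0378), and was lost without control pool 1 or 3 or STZ pool 1 or 3 (0.0827 to 0.168). Slc12a4 had a log2 difference of −0.09 (interval −0.28 to 0.09).

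Slc12a1, the sodium-potassium-chloride cotransporter of the thick ascending limb (2:125152600-125230001, plus strand), was lower at 17.3, 61.0 and 21.2 CPM in controls and 4.45, 3.55 and 3.16 CPM in STZ pools. The log2 difference was −3.16 ± 0.64 (adjusted p = 0.0497), from 157, 380 and 96 counts in controls and 46.5, 41 and 39 in STZ pools. It was the most variable of the called members, and in these bulk samples fewer cells of a type and less RNA per cell cannot be told apart. The call was lost in 11 of 17 alternative settings. Among them were DESeq2 size factors (0.05001), upper-quartile normalization (0.05022) and no filter (0.05127). DESeq2 (7.79e-06) and limma-voom (0.00625) kept it. It was lost without control pool 3 (0.0829) or without any 1 of the STZ pools (0.164 to 0.190). Without control pool 2, its highest, the log2 difference was −2.36 (adjusted p = 0.000108). Slc12a3, the sodium-chloride cotransporter of the distal convoluted tubule, was at 151, 240.3 and 23.4 CPM in controls and 56.7, 4.67 and 140.2 CPM in STZ pools, and was not called (log2 −1.05, interval −4.74 to 2.64). The groups overlapped and both spread widely. The potassium channel Kcnj1, a marker of the same segments, had the same order within each group, at 15.6, 30.8 and 4.42 CPM and 7.54, 0.865 and 13.3 CPM.

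**Figure D4:**
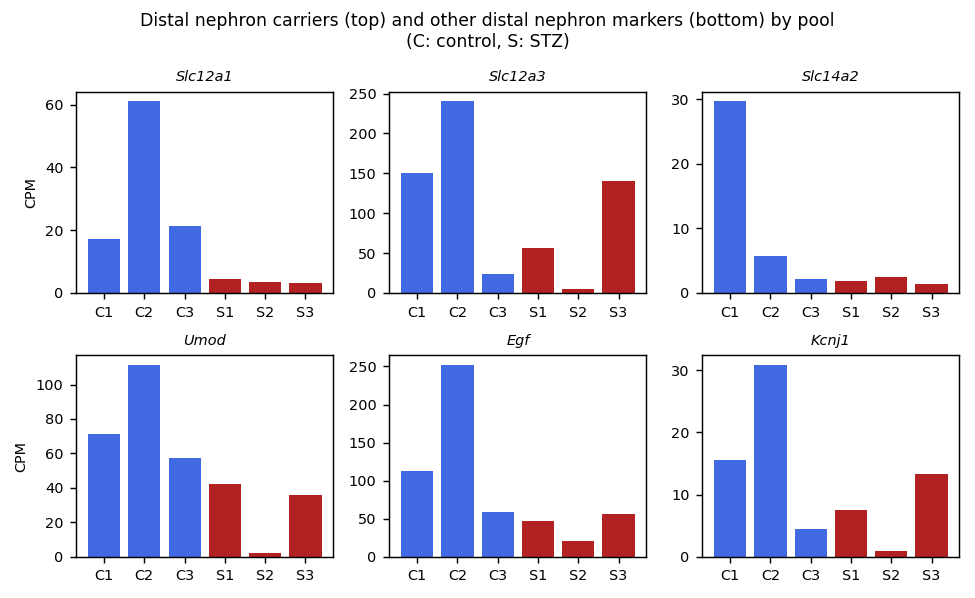
CPM per pool of the distal nephron carriers Slc12a1, Slc12a3 and Slc14a2 (top) and of the markers Umod, Egf and Kcnj1 (bottom), with control pools C1 to C3 and STZ pools S1 to S3 and bars from 0. Slc12a3 and Kcnj1 show the same order of pools, highest in C2 and lowest in S2.

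Of a list of 8 distal nephron carriers 4 were in the deposited files, and of those 1 was called lower (25.0%, beside 9.78% of all genes). Their summed CPM was 203, 309 and 50.6 in controls and 66.3, 13.7 and 148 in STZ pools, so the groups overlapped. The urea carrier Slc14a2 was at 29.7, 5.78 and 2.21 CPM and 1.84, 2.42 and 1.46 CPM and was not called (log2 −2.82 ± 1.07, adjusted p = 0.21). Umod, the major protein of the thick ascending limb, was at 71.3, 111 and 57.4 CPM and 42.1, 2.42 and 36.1 CPM (adjusted p = 0.41). With the level of the distal nephron markers in the fit, the log2 difference of Slc12a1 was −2.36 (adjusted p = 0.147).

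Of a list of 44 proximal tubule carriers 12 were in the deposited files. Slc15a2 was the 1 called, higher (8.33% of the 12, beside 9.78% of all genes). Their summed CPM was 80.0, 65.9 and 83.9 in controls and 104, 112 and 117 in STZ pools. Without Slc15a2 it was 44.5, 40.3 and 44.4 in controls and 35.1, 35.5 and 36.3 in STZ pools. Leaving out the 1 called gene fixes the count at 0 of 11 called by edgeR (1 of 11 at an unadjusted p under 0.05). The median log2 fold change of these 11 was −0.24. The glucose carrier Slc5a1 was at 5.16, 5.30 and 5.30 CPM and 2.51, 3.37 and 4.45 CPM (adjusted p = 0.18), and the amino acid carrier Slc6a18 at 11.9 ± 4.22 and 8.38 ± 1.04 CPM. The 7 tested proximal tubule markers summed to 736 to 953 CPM in controls and 1091 to 1123 CPM in STZ pools, without overlap. Of these, Aqp1 and Cyp4b1 were called higher. Without Aqp1 and Cyp4b1 the sum was 78.9 to 85.3 CPM in controls and 78.4 to 91.9 CPM in STZ pools, which overlapped. Leaving out the called markers brings the sums closer by choice.

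Of a list of 28 carriers and associated genes of endothelium 25 were in the deposited files, with 3 called higher (Slc9a3r2, Slc43a3 and Slc3a2), 2 lower (Slc7a1 and Slc12a2) and a median log2 fold change of 0.13. Their summed CPM, 6189.7 to 7083 in controls and 7765 to 7909.7 in STZ pools, did not overlap between the groups. Without the scaffold Slc9a3r2, which is not itself a carrier, and Slc43a3 the sum was 3751 to 4406 in controls and 4068 to 4222 in STZ pools, which overlapped. Both genes were among the 3 called higher, so leaving them out brings the sums closer by choice. Slc9a3r2 was higher, at 1995, 1953 and 2166 CPM against 2692, 2701 and 2649 CPM (1.31-fold, log2 0.40 ± 0.10, adjusted p = 0.0186). Its call was lost without control pool 1 or without any 1 STZ pool (0.05004 to 0.0902). Its relative Slc9a3r1 was not called, at a log2 difference of −0.15. Of a list of 10 leukocyte carriers 7 were in the deposited files and 0 called by edgeR (2 at an unadjusted p under 0.05), with summed CPM of 89.7 to 103 in controls and 98.7 to 103 in STZ pools.

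Among 22 acid-base and anion carriers 0 were called higher and 2 lower, both bicarbonate carriers (9.09%, beside 9.78% of all genes). The median log2 fold change was −0.07. The chloride-bicarbonate exchanger Slc4a3 was lower at 23.4, 21.0 and 20.3 CPM against 12.9, 12.7 and 14.3 CPM (log2 −0.70 ± 0.14, adjusted p = 0.00653). The sodium-bicarbonate cotransporter Slc4a7 was lower at 29, 26.7 and 31.8 CPM against 18, 24.5 and 19.3 CPM (log2 −0.50 ± 0.14, adjusted p = 0.0458). Leaving out any 1 of the 3 control pools (0.0583 to 0.139), or STZ pool 1 or 3, lost the Slc4a7 call. The chloride-bicarbonate exchanger Slc4a2 was at 120 ± 5.47 and 120 ± 4.72 CPM, with an interval of −0.18 to 0.18 for the log2 difference. Slc26a10, a member of the anion exchanger family, was at 275, 252 and 270 CPM and 200.2, 240 and 197 CPM and just missed the threshold (log2 −0.32 ± 0.10, adjusted p = 0.0582). The groups of Slc26a10 did not overlap.

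Of 3 carriers of organic osmolytes, Slc5a3, Slc6a6 and Slc6a12, 1 was called (all genes 9.78%). Slc5a3, which brings myo-inositol into cells (16:92058322-92087473, plus strand), fell from 48.1, 52.5 and 48.8 CPM to 32.5, 28.2 and 33.4 CPM (log2 −0.67 ± 0.11, adjusted p = 0.00184). It lies within Mrps6 on the same strand, so reads of the pair may not be told apart. The betaine carrier Slc6a12 was at 2.53 ± 0.678 and 2.05 ± 0.405 CPM, not called, as was the taurine carrier Slc6a6 above. Slc18a2, the vesicular monoamine carrier, fell from 20.9, 21.7 and 17.5 CPM to 11.3, 9.69 and 10.7 CPM (log2 −0.93 ± 0.16, adjusted p = 0.00199). The fold of Slc18a2 was 0.525, and its pools did not overlap.

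Among the 16 nucleoside, vitamin and choline carriers 0 were called by edgeR (2 at an unadjusted p under 0.05). The equilibrative nucleoside carrier Slc29a1 was at 236, 225 and 217 CPM and 245, 252 and 251 CPM, with no overlap and an interval of −0.04 to 0.32. Slc29a4, a carrier of monoamines and nucleosides, had a log2 difference of 0.68 ± 0.20 (adjusted p = 0.0526), and Slc44a2 of 0.13 (interval −0.07 to 0.32). Of the 2 calcium exchangers 0 were called by edgeR, both with an unadjusted p under 0.05. The sodium-calcium exchanger Slc8a1 was at 32.3, 35.3 and 28.9 CPM and 18.1, 10.8 and 23.1 CPM (log2 −0.90 ± 0.24, adjusted p = 0.0525), and its STZ pools too were lowest in pool 2 and highest in pool 3. DESeq2 (adjusted p = 0.00122), limma-voom (0.0250) and the fit that was not robust (0.0318) called Slc8a1. So did edgeR with DESeq2 size factors (0.0493), with the filter of at least 1 CPM in 3 libraries (0.0485), and without STZ pool 2 (0.0204) or 3 (0.0053). The other settings did not. Without STZ pool 1 or any 1 of the 3 control pools adjusted p was 0.0867 to 0.174. With the mural marker level in the fit the log2 difference was −0.08 (adjusted p = 0.899). The mitochondrial exchanger Slc8b1 was at 40.3 ± 3.62 and 50.7 ± 4.66 CPM (adjusted p = 0.0917).

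Metal carriers gave 1 call. Of 8 carriers of iron, copper and magnesium, 1 was called (12.5%, beside 9.78% of all genes). It was Slc41a3, a magnesium carrier, higher at 11, 12.5 and 11.5 CPM against 18.9, 16.9 and 19.1 CPM (log2 0.65 ± 0.15, adjusted p = 0.0147). That call was lost without control pool 1 or STZ pool 1 or 3 (0.0592 to 0.0752). The iron exporter Slc40a1 was at 5.10 ± 1.34 and 7.01 ± 0.164 CPM and was not called. Of 17 zinc carriers 0 were called by edgeR (2 at an unadjusted p under 0.05), with a median of −0.02. The zinc carriers with the highest control CPM were Slc39a7, at 120 ± 8.05 and 112 ± 4.53 CPM, and Slc39a1, at 99.7 ± 13.1 and 119 ± 2.12 CPM.

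Among the 20 members of the nucleotide sugar family Slc35, which mostly serve the Golgi and endoplasmic reticulum, 1 was called. That is 5.0%, beside 9.78% of all genes, and the median log2 fold change was 0.00. Slc35e4, an orphan of that family, was higher at 33.7, 30.7 and 29.2 CPM against 44.7, 47.7 and 46.8 CPM (log2 0.57 ± 0.11, adjusted p = 0.00457). Slc35b1 was at 67.7, 68.4 and 65.6 CPM and 79.6, 80.7 and 74.5 CPM, with no overlap and an adjusted p of 0.143. Of 9 phosphate and related carriers, 7 organic ion carriers and 3 fatty acid carriers 0 were called by edgeR, with 2, 1 and 0 at an unadjusted p under 0.05. The phosphate carrier Slc20a1 was at 107 ± 21.1 and 89.6 ± 4.03 CPM, the carnitine carrier Slc22a5 at 67.4 ± 2.69 and 59.8 ± 0.323 CPM and the fatty acid carrier Slc27a3 at 84.7 ± 17.5 and 74.4 ± 5.21 CPM. Slc10a3-ubl4, a readthrough of the overlapping genes Slc10a3 and Ubl4, was called higher at 7.87 ± 0.905 and 12.3 ± 1.35 CPM (adjusted p = 0.0466). It overlaps both genes on the same strand and is the 1 called member on the X. Its call was lost without any 1 of the 3 control pools or without STZ pool 1 or 3 (0.0783 to 0.194). DESeq2 and limma-voom did not call it either (adjusted p 0.0723 and 0.0604).

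**Figure D5:**
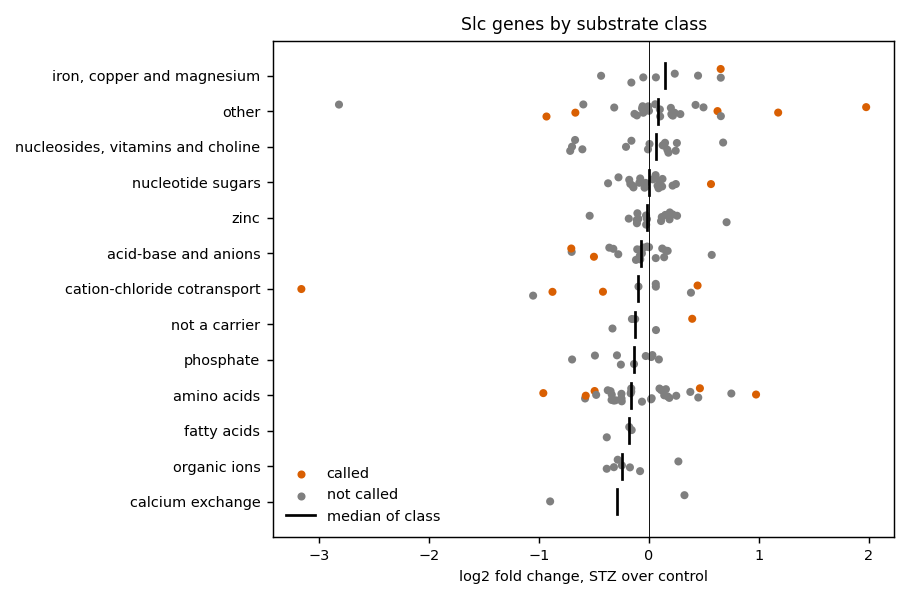
Fold change of STZ over control (log2) of every tested member by substrate class, orange where called, with a line at the class median. Class medians lie between −0.29 and 0.15, and the called members fall on both sides of it in the amino acid, cation-chloride and other classes.

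By the location terms in the deposited files, which cover 114 of the 180 members, 61 carried a plasma membrane term only, 32 an organelle term only and 21 both. Of the 61, 4 were called higher and 6 lower (16.4%, beside 9.78% of all genes), with a median of −0.17. Of the 32 with an organelle term only, 0 were called by edgeR (4 at an unadjusted p under 0.05), with a median of 0.05. Of the 21 with both, 1 was called lower (4.76%). Of the 65 tested members with neither term, 5 were called higher and 3 lower (12.3%), with a median of 0.00. The difference between these groups was not tested.

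Genes that regulate carriers were listed beside them. The list held 14 tested genes of the WNK and SGK kinases and of proteins that work with them. This network sets the activity of Slc12 carriers and sodium channels. Of the 14, 4 were called higher and 0 lower (28.6%, beside 9.78% of all genes), with a median log2 fold change of −0.02. Sgk1 rose from 1477 ± 282 to 2653 ± 243 CPM (log2 0.85 ± 0.13, adjusted p = 0.00135), and Tsc22d3, which encodes GILZ, from 255 ± 11.5 to 463 ± 28.5 CPM (log2 0.86 ± 0.09, adjusted p = 7.25e-05). Klhl2 and Sgk3 rose by 0.54 ± 0.10 and 0.41 ± 0.12 (log2, adjusted p 0.00311 and 0.0399). Wnk1 had a log2 difference of −0.02. The kinase gene Stk39 was lower in every STZ pool but not called (log2 −0.52 ± 0.16, adjusted p = 0.0531).

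Of 20 tested genes of the ATF4 amino acid response, whose targets include Slc3a2 and Slc7a1, 2 were called higher and 0 lower. That is 10.0%, near the 9.78% of all genes. The 2 were Ddit4 at 1.15 ± 0.09 (log2, adjusted p = 4.02e-06) and Cebpg at 0.58 ± 0.09 (adjusted p = 0.00135). Atf4 itself was at 175 ± 8.17 and 206 ± 4.80 CPM and was not called (adjusted p = 0.104). Among 27 tested carriers with symbols other than Slc and a number, 3 were called higher and 1 lower (14.8%, beside 9.78% of all genes). The prostaglandin carrier Slco2a1 rose from 358, 343 and 274 CPM to 552, 529 and 531 CPM (log2 0.72 ± 0.11, adjusted p = 0.000909), and the organic anion carrier Slco4a1 from 22.7, 18.6 and 17.5 CPM to 40.4, 46.4 and 43.1 CPM (log2 1.13 ± 0.13, adjusted p = 0.000132). Of 3 zinc response genes 0 were called by edgeR, with 0 at an unadjusted p under 0.05.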

How the data were processed

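RNA of sorted glomerular endothelial cells was sequenced from 3 control and 3 STZ pools. The deposited files give 1 expected count (estimated count) per gene and library, with a RefSeq identifier, mm10 coordinates and transcript length per the file headers. Per the submitters' processing notes, the build was mm10 and limma was used. Which aligner, counter, strand setting or gene filter was used is not given in the sources used. The 34 blank cells were read as 0 and fractional values, present in 2251 genes, were rounded.

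Genes were tested with edgeR 4.0.16 (R 4.3.3; filterByExpr, TMM, robust quasi-likelihood test, two-sided, Benjamini-Hochberg over 12786 tested genes, threshold 0.05). CPM use TMM library sizes, errors are SD or SE, and 95% intervals use the fit's degrees of freedom. The pipeline was tested on simulated data. Totals of 4387339 to 12662371.5 counts set the precision. Listed starts were raised by 1 to give 1-based coordinates.

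The members and the 17 gene lists were chosen with earlier results of these data known, and so were the tests. Values by pool were given first for the most abundant members, the called members, tubule carriers and the leading members of each class, then for list genes with the smallest p. Location terms came from the deposited files and do not cover every member. Alternatives were DESeq2 1.42.0 and its size factors, upper-quartile normalization, limma-voom (limma 3.58.1), other filters, a fit that was not robust, thinned counts, a replicate block and each library left out. A mesangial and mural or a distal nephron marker level was added to the fit after the data had been seen. The labels do not say that replicate numbers pair the pools. Promoters came from RefSeq (GRCm38.p6), where 141 of 180 members had an entry. Slc43a3 has none. Figures were drawn with matplotlib 3.10.9. Some results are not reported here.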

Additional observations from a re-analysis of the deposited data

How the results depend on the processing

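Of 883 values of 52 named carriers over the alternatives, 0 changed direction past the threshold, 789 kept their side of it, 74 lost and 20 gained it. The marker level of mesangial and mural cells, added after seeing the data, left 299 genes called (204 higher, 95 lower), and 3 members (3 higher, 0 lower). Its groups do not overlap, so the marker level and STZ cannot be told apart. Leaving out 1 library gave 662 to 1291 called genes (426 to 695 higher, 236 to 596 lower) and 11 to 19 called members (5 to 10 higher, 5 to 11 lower), lowest without control pool 1 or STZ pool 1. Thinning to the smallest library left 6 members lower. The replicate block called 14 members, 13 of them shared, with 6 lower, and 1001 genes. Same-numbered pools correlated at 0.119, −0.128 and −0.163, and pools of unlike number at −0.243 to 0.295. These few values, centred within groups of 3, cannot tell whether the numbers pair the pools. DESeq2 called 20 members (18 shared) and limma-voom 17 (16 shared). Median log2 fold changes ranged, with 1 library left out, from −0.19 to −0.0307 in amino acid carriers, from −0.0476 to 0.0664 in zinc carriers, from −0.0333 to 0.0396 in nucleotide sugar carriers, from 0.0515 to 0.14 in endothelial carriers and from 0.0845 to 0.24 in the ATF4 list. The causes were not tested. Thinning every library to the depth of the smallest called 15 members, all among the 19.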
